A study of Mus musculus with 9 samples.

Results

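Glycolysis and hypoxia response genes were followed across the 9 libraries of a bulk RNA sequencing experiment on mouse bone marrow stromal cells. The set held 37 genes, chosen by symbol from the 30579 genes of the deposited table. It covered glucose and lactate transporters, the enzymes of glycolysis and lactate dehydrogenase, enzymes that set the rate at which pyruvate is made or burned, the subunits and oxygen sensors of hypoxia-inducible factor (HIF), and genes that HIF is known to switch on. All 37 were listed, and 35 passed a filter of at least 1 FPKM in at least 3 libraries, as did 11988 genes in all. FPKM is fragments per kilobase of transcript scaled to the mapped fragments of the library, so levels of different genes can be set beside each other per length. Aldoc, an aldolase, and Car9, a carbonic anhydrase of the cell surface, did not pass. Aldoc lay between 0 and 0.570 FPKM and Car9 between 0 and 0.600 FPKM over the 9 libraries.

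The cells were mesenchymal stromal cells, isolated from mouse long bones by fluorescence-activated sorting, with 3 libraries per group. The groups were Aged Thbs1 knockout mice of 18 months, Aged Control mice of 18 months and Young Control mice of 3 months. Thbs1 encodes thrombospondin 1, a secreted matrix glycoprotein. Mice of all 3 groups were injected 10 minutes before death with an antibody to the endothelial cadherin VE-cadherin, and a SMART-Seq v4 kit turned 2 ng of total RNA into each library. Strain, sex, the sort gates, the knockout allele, whether it acts in all tissues, and whether a library came from 1 mouse or a pool are not stated in the labels. The p-values therefore measure the spread between these libraries, which may be partly technical.

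Glycolysis splits glucose into pyruvate in the cytosol and yields ATP without oxygen, and lactate dehydrogenase turns pyruvate into lactate, which leaves the cell through monocarboxylate transporters. HIF is a pair of a regulated alpha subunit and a stable partner. When oxygen is present, prolyl hydroxylases of the EGLN family mark the alpha subunit, the VHL protein binds it, and it is destroyed. When oxygen is short, the alpha subunit is kept, and HIF raises the transcription of many glycolytic genes and of the mitophagy and growth-restraining genes in this set. Bone marrow is known as a tissue of low oxygen, and its stromal cells are known to rely on glycolysis.

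HIF is known to bind DNA at a short core with the letters ACGTG or GCGTG. A start-site window of RefSeq, build GRCm38.p6, matched 33 of the 37 genes, with 46 windows. These letters, on either strand, occurred in the 250 bases before the start in 37 of 46 windows (80.4%), against 38.6% of all 32851 mouse windows of the same length. The windows of the set were richer in G and C, with a median of 61.8% against 52.4% over all windows, and both motifs hold a CG pair. The 5 windows shown here belong to the transporter, the kinase, the dehydrogenase and the sensor that led the comparisons below, and to Ldha, the gene of the set with the highest mean level. Each runs 5′ to 3′ on the gene's strand and ends at the start, or before the first base of an annotated exon where that comes earlier. Capitals mark the motif matches. The letters CACGTG hold a match on each strand and count as 2. A match is a description of the letters and says nothing of binding.
Slc16a3, chr11:120948817-120949052, plus strand: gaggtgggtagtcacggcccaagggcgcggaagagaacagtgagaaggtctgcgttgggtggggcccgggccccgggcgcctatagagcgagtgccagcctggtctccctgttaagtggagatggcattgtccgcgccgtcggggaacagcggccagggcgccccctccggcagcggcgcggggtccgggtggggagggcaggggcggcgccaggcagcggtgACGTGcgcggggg
Pfkp, chr13:6648778-6649021, minus strand: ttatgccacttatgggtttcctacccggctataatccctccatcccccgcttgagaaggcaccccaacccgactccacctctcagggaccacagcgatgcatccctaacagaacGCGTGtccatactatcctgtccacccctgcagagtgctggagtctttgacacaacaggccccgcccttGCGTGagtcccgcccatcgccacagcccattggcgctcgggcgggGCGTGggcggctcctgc
Ldhb, chr6:142507958-142508207, minus strand: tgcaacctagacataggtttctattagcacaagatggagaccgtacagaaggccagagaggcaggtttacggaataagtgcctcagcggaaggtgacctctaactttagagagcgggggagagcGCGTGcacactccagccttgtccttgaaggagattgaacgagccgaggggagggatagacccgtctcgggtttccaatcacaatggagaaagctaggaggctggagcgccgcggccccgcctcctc
Egln1, chr8:124949325-124949504, minus strand: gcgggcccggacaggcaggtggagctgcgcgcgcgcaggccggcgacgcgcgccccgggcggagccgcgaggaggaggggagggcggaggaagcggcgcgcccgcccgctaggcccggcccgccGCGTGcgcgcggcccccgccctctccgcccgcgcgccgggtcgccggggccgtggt
Ldha, chr7:46845554-46845803, plus strand: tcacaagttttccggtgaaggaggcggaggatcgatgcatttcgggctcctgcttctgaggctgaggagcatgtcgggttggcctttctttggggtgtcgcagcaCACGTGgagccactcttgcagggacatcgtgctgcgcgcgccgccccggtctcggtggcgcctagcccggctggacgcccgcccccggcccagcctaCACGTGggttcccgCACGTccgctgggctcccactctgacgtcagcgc
The Ldha stretch held 5 matches and the Pfkp stretch 3, while the Slc16a3, Ldhb and Egln1 stretches held 1 each. Over the full 250 bases the windows of Slc16a3 and Egln1 held 2 each, and those of Ldha, Pfkp and Ldhb no more than their stretches. The Ldha stretch is that of the first of 2 starts in RefSeq, and the window of the second held 1 match. Of the other genes that led the comparisons, the window of Gpi1 held 0 matches, that of Higd1a 2, and those of the 2 starts of Pkm 0 and 1.

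Several facts of the libraries touch the results. Thbs1 stood at 24.3, 44.6 and 37.1 FPKM in the libraries labelled Aged Thbs1 knockout, against 35.6, 41.9 and 36.9 FPKM in aged controls and 75.0, 73.1 and 58.0 FPKM in young controls. The labelled-knockout libraries thus overlapped the aged controls in the targeted gene (log2 fold change -0.15, SE 0.26, limma adjusted p = 0.801). The labels do not state which part of the gene is deleted, so this level does not check them. Stromal markers were present everywhere, with Cxcl12, the main chemokine of these cells, between 2873 and 6044 FPKM. The estimated share of reads in immunoglobulin genes was 0.162%, 19.2% and 2.36% in the labelled-knockout libraries, against 21.6%, 4.27% and 31.9% in aged controls and at most 0.170% in young controls. The summed level of 11 pan-leukocyte markers was 41.4, 774 and 138 FPKM in the labelled-knockout libraries, 2044, 2314 and 652 FPKM in aged controls and 54.1, 60.1 and 125 FPKM in young controls. Without Cd52, a lymphocyte surface protein, the sums were 39.5, 229 and 61.2 FPKM in the labelled-knockout libraries, 1601, 2201 and 235 FPKM in aged controls and 53.1, 59.6 and 119 FPKM in young controls. None of the 11 markers was at 0 in all libraries of a group. In bulk libraries such as these, fewer cells of a type and less RNA per cell cannot be told apart. The second labelled-knockout library stood apart from the rest, with correlations of 0.738 to 0.811 with the other libraries over the tested genes.

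For aged against young controls, the 7 genes of the set with an unadjusted p under 0.05 differed in which libraries set them apart, and none of them passed the adjusted test. Slc16a3, Pfkp, Gpi1 and Pkm, which serve lactate export and the upper and last steps of glycolysis, were highest in aged control replicates 1 and 2. In FPKM as listed, Egln1, Ldhb and Higd1a, an oxygen sensor, a lactate dehydrogenase subunit and a hypoxia target, were lower in all 3 aged controls than in the other 6 libraries. All of these 7 genes but Pkm were also among the 8 genes with an unadjusted p under 0.05 for labelled-knockout libraries against aged controls, beside Slc16a1 and Ankrd37, which had the second and the third smallest p there. For labelled-knockout libraries against young controls, the genes with an unadjusted p under 0.05 were Bnip3l and Slc16a1. No gene of the set passed an adjusted p of 0.05 in any of the 3 comparisons in the limma fit over all 9 libraries. Between aged and young controls 0 of 35 were called, against 4.04% of all tested genes, and 7 of 35 had an unadjusted p under 0.05, against 21.7% of all. Between labelled-knockout libraries and aged controls 0 of 35 were called, against 3.48% of all, and 8 of 35 had an unadjusted p under 0.05, against 19.8%. Between labelled-knockout libraries and young controls 0 of 35 were called, against 0.025% of all, and 2 of 35 had an unadjusted p under 0.05, against 8.63%. The unadjusted shares lie near those of all genes.

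**Figure D1:**
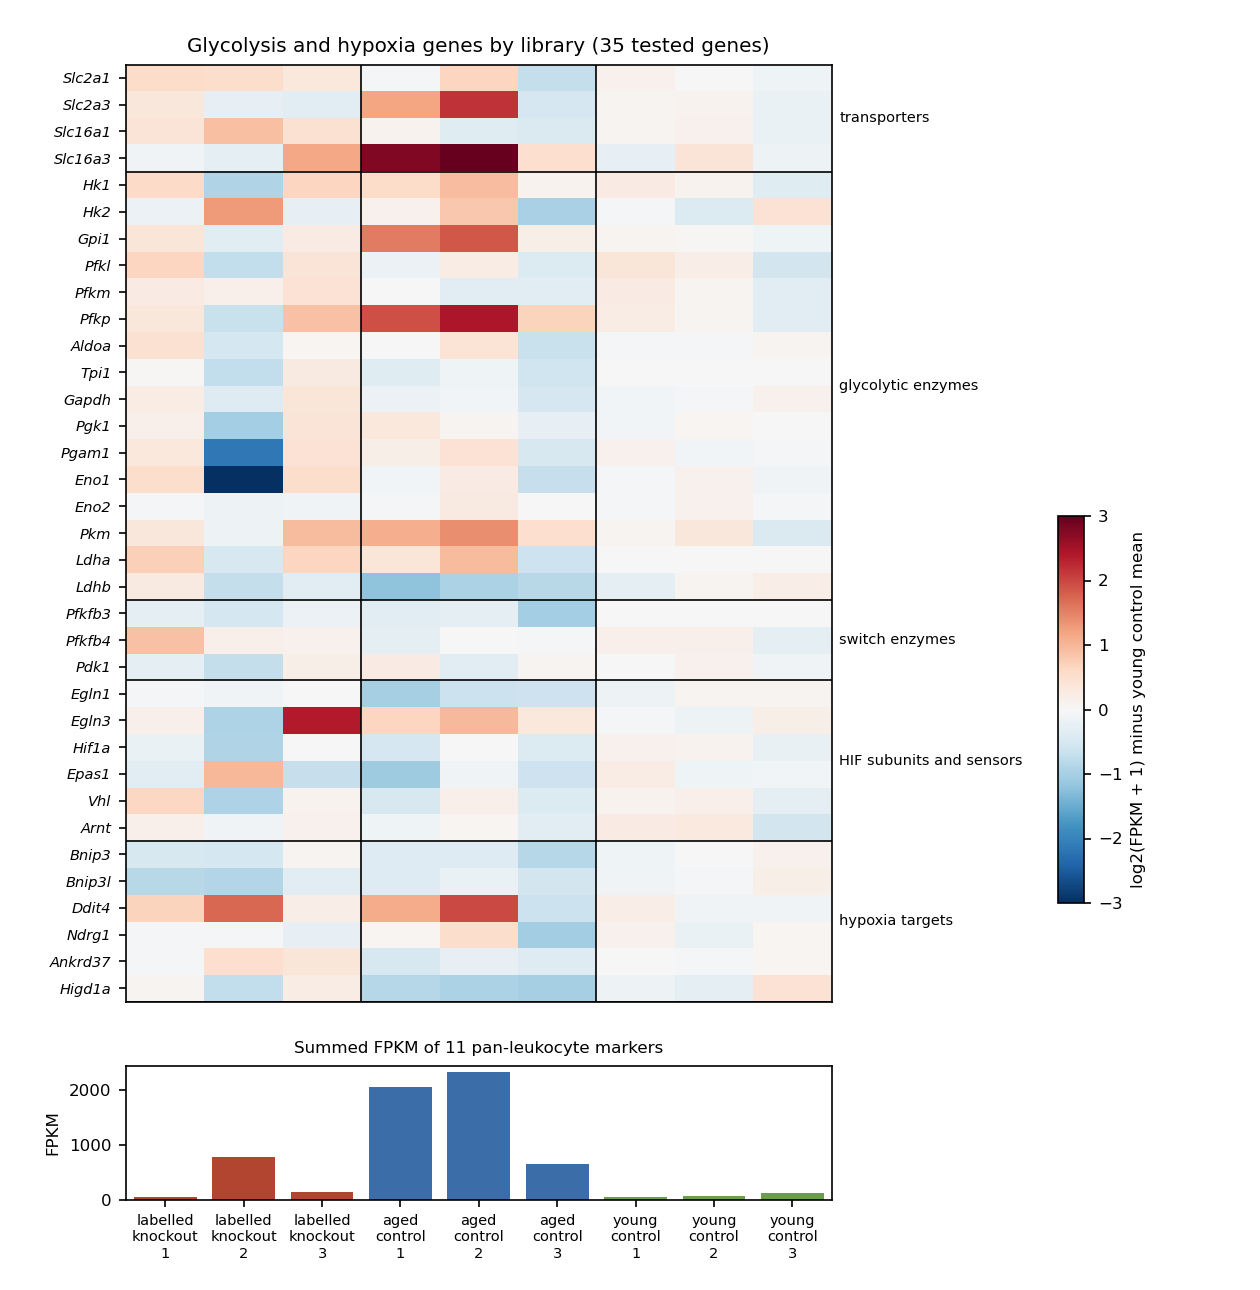
Log2(FPKM + 1) of the 35 tested genes in each library, minus the mean of the 3 young controls, in colours that end at 3, with red for higher and blue for lower values and rows ordered by role. The bars give the summed FPKM of 11 pan-leukocyte markers per library, highest at 2314 in aged control replicate 2, and Slc16a3, Pfkp and Gpi1 show their deepest red in aged control replicates 1 and 2.

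A lactate transporter had the largest fold change of the set both for aged against young controls and for labelled-knockout libraries against aged controls. Slc16a3, the monocarboxylate transporter MCT4 that carries lactate out of strongly glycolytic cells, was listed at 0.880, 0.660 and 3.57 FPKM in labelled-knockout libraries, 13.0, 26.1 and 1.90 FPKM in aged controls and 0.720, 1.65 and 0.840 FPKM in young controls. All 3 aged controls lay above all 3 young controls, but the third by little, and this library lay inside the range of the labelled-knockout group. The log2 fold change was 2.34 (SE 0.73, limma adjusted p = 0.1097) for aged against young controls and -2.09 (SE 0.73, limma adjusted p = 0.159) for labelled-knockout libraries against aged controls. In FPKM the group means stood in a ratio of 12.8 for the first of these comparisons and 0.125 for the second.

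Slc2a3, the high-affinity glucose transporter GLUT3, was also highest in aged control replicates 1 and 2. Its levels were 14.9, 9.63 and 9.17 FPKM in labelled-knockout libraries, 27.6, 56.2 and 7.89 FPKM in aged controls and 12.5, 12.7 and 9.98 FPKM in young controls. The first pair of aged controls exceeded every other library, and the third was the lowest of all 9, so the groups overlapped in each comparison (log2 fold change 0.95, SE 0.56, limma adjusted p = 0.364 for aged against young controls). Slc2a1, the widely expressed glucose transporter GLUT1, had 17.7, 17.5 and 15 FPKM in labelled-knockout libraries, 11.4, 19.2 and 6.79 FPKM in aged controls and 12.9, 11.8 and 10.8 FPKM in young controls.

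Slc16a1, the monocarboxylate transporter MCT1 that moves lactate either way, differed from Slc16a3 in the order of its groups. It was listed at 5.76, 8.65 and 6.03 FPKM in labelled-knockout libraries, 4.57, 2.97 and 2.82 FPKM in aged controls and 4.46, 4.59 and 3.44 FPKM in young controls. The labelled-knockout libraries lay above all 6 others, by 0.81 on the log2 scale against aged controls (SE 0.25, limma adjusted p = 0.113) and by 0.59 against young controls (SE 0.25, limma adjusted p = 0.554). The 2 control groups overlapped.

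Among the 16 tested glycolytic enzymes, 3 lay higher in aged than in young controls with no overlap and 2 lower, as did 7.02% and 37.4% of all tested genes. Pfkp, the platelet-type phosphofructokinase of the committing step, was listed at 4.91, 1.92 and 7.52 FPKM in labelled-knockout libraries, 16.6, 24.1 and 6.36 FPKM in aged controls and 4.43, 3.93 and 2.73 FPKM in young controls. Its log2 fold change was 1.68 (SE 0.50, limma adjusted p = 0.0998) for aged against young controls and -1.49 (SE 0.50, limma adjusted p = 0.144) for labelled-knockout libraries against aged controls, where the third library of each group broke the separation. The exons of Pfkp overlap those of Pitrm1 on the other strand, and Pitrm1 lay between 2.70 and 6.34 FPKM in all libraries, with a log2 fold change of 0.01 for aged against young controls.

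Gpi1, the isomerase that follows hexokinase, was listed at 13.3, 8 and 12.2 FPKM in labelled-knockout libraries, 31.97, 39.4 and 11.5 FPKM in aged controls and 10.8, 10.5 and 9.24 FPKM in young controls. The third aged control was only just above the young controls. The log2 fold change was 1.20 (SE 0.41, limma adjusted p = 0.133) for aged against young controls and -1.10 (SE 0.41, limma adjusted p = 0.180) for labelled-knockout libraries against aged controls. Pkm, the pyruvate kinase of the last step, was listed at 28.7, 20.0 and 44.5 FPKM in labelled-knockout libraries, 48.7, 60.6 and 32.1 FPKM in aged controls and 23.7, 28.7 and 16.4 FPKM in young controls. All aged controls exceeded all young controls, and the labelled-knockout range overlapped both (log2 fold change 0.99, SE 0.36, limma adjusted p = 0.147 for aged against young controls).

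Ldhb, the heart-type lactate dehydrogenase subunit, was lowest in aged controls. Its levels were 63.5, 31.8 and 41.4 FPKM in labelled-knockout libraries, 22.5, 26.8 and 29.2 FPKM in aged controls and 43.3, 56.3 and 60.8 FPKM in young controls. The aged controls lay below all 6 other libraries, with a log2 fold change of -0.997 (SE 0.28, limma adjusted p = 0.0846) for aged against young controls and 0.73 (SE 0.28, limma adjusted p = 0.194) for labelled-knockout libraries against aged controls. The labelled-knockout and young groups overlapped (log2 fold change -0.27, SE 0.28, limma adjusted p = 0.750).

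The most abundant enzymes did not separate by group. Ldha, the muscle-type subunit and the highest of the set, was listed at 203, 87.8 and 193 FPKM in labelled-knockout libraries, 158, 239 and 80.2 FPKM in aged controls and 124, 124 and 122 FPKM in young controls. The young controls lay close together, while the aged controls held both the lowest and the highest of the 9 values, 2.99-fold apart. The difference between aged and young controls was 0.23 on the log2 scale, with a 95% interval from -0.75 to 1.21, which leaves room for changes of either sign. Aldoa, the main aldolase, averaged 122 ± 40.1 FPKM in labelled-knockout libraries, 116 ± 42.04 FPKM in aged controls and 118 ± 5.93 FPKM in young controls (SD, n = 3 each).

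Tpi1, the triose isomerase, was listed at 57.3, 33.3 and 67.0 FPKM in labelled-knockout libraries, 43.4, 51.1 and 36.4 FPKM in aged controls and 56.0, 56.4 and 55.1 FPKM in young controls. The aged controls lay below the young ones without overlap in FPKM as listed (log2 fold change -0.36, SE 0.28, limma adjusted p = 0.484). After median-ratio rescaling the log2 fold change was -0.03 (limma adjusted p = 0.974). Pfkm, the muscle-type phosphofructokinase, was listed at 6.86, 6.37 and 7.97 FPKM in labelled-knockout libraries, above 5.71, 4.25 and 4.32 FPKM in aged controls, and at 6.82, 5.98 and 4.32 FPKM in young controls (log2 fold change 0.49, SE 0.23, limma adjusted p = 0.271 against aged controls). Pfkl, Hk1, Hk2, Pgk1 and Eno2 overlapped between groups in every comparison, and the neuronal enolase Eno2 varied least, between 1.62 and 2.53 FPKM.

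Eno1, the main enolase, was listed at 56.0, 1.62 and 55.9 FPKM in labelled-knockout libraries, 36.3, 45.6 and 23.2 FPKM in aged controls and 37.5, 42.2 and 35.7 FPKM in young controls. Pgam1, the mutase one step before it, was listed at 27.6, 4.23 and 29.8 FPKM in labelled-knockout libraries, 25.1, 30.0 and 15.4 FPKM in aged controls and 24.2, 20.7 and 21.1 FPKM in young controls. Both were far lower in the second labelled-knockout library than in any of the other 8. That library was the lowest of all 9 for 15 of the 35 tested genes, against 44.6% of all tested genes.

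Gapdh, the dehydrogenase in the middle of the pathway, was listed at only 6.79, 4.09 and 7.6 FPKM in labelled-knockout libraries, 4.92, 5.35 and 3.75 FPKM in aged controls and 5.35, 5.48 and 6.28 FPKM in young controls. These levels per length lay below those of Tpi1 and Pgk1, its neighbours in the pathway, in every library. GENCODE M21 lists 77 loci that match Gapdh over at least 300 bases at 95% identity or more, of which 74 are pseudogenes and 64 are in the table, with a summed level of 5.33 to 23.8 FPKM. The sources used here do not give how reads that match several loci were counted, so the level of Gapdh is uncertain. Of the 37 genes, 12 have at least 1 locus with such a match, among them Pgk1 with 4, and Eno1, Ldha and Bnip3 with 3 each. The single match of Pfkp has the listed range of Pitrm1, 2.70 to 6.34 FPKM. Exons of Pitrm1 overlap those of Pfkp, so this match appears to be that overlap and not a separate copy. Of the 37 genes, 15 share exon bases with another gene.

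**Figure D2:**
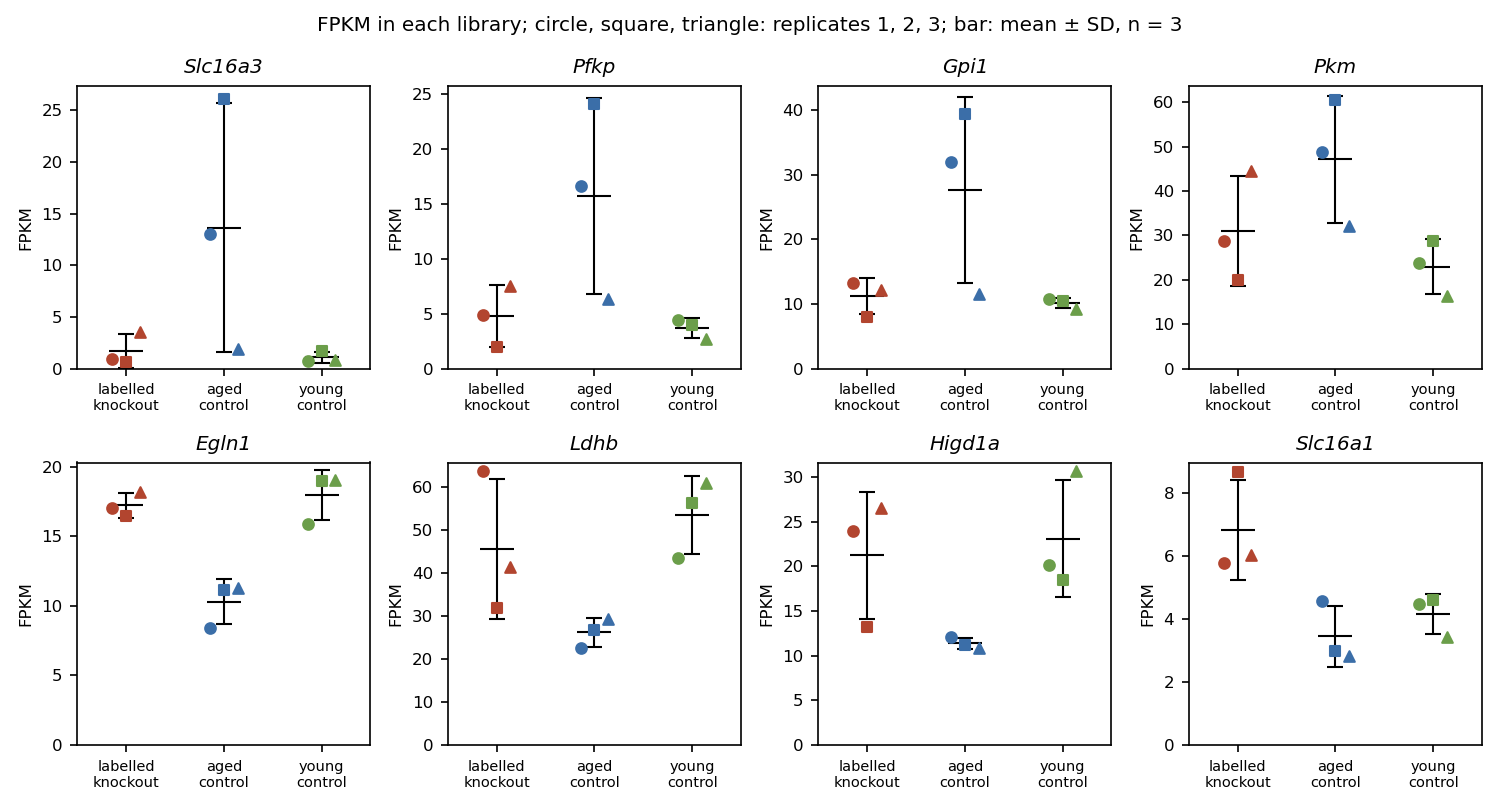
FPKM of 8 genes in each library, by group, with the mean and SD of 3 libraries. Slc16a3, Pfkp, Gpi1 and Pkm are highest in aged control replicates 1 and 2, while Egln1, Ldhb and Higd1a are lower in all 3 aged controls than in the other 6 libraries and Slc16a1 is higher in all 3 labelled-knockout libraries.

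The isoforms that make up a step were also compared as shares of the summed FPKM of their family, a measure added after the data were seen. It does not depend on how a library was scaled. Pfkp made up 17.3%, 13.7% and 25.8% of phosphofructokinase FPKM in labelled-knockout libraries, 53.2%, 59.6% and 35.2% in aged controls and 17.9%, 18.1% and 20.0% in young controls. Slc2a3 made up 45.7%, 35.5% and 37.9% of the Slc2a1 and Slc2a3 total in labelled-knockout libraries, 70.8%, 74.5% and 53.8% in aged controls and 49.1%, 51.7% and 48.0% in young controls. Slc16a3 made up 13.3%, 7.09% and 37.2% of the Slc16a1 and Slc16a3 total in labelled-knockout libraries, 74.0%, 89.8% and 40.3% in aged controls and 13.9%, 26.4% and 19.6% in young controls. In these 3 families every aged control, the third included, had a larger share of the named isoform than every labelled-knockout and every young library.

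With 3 libraries against 3, an exact two-sided permutation test cannot go below p = 0.1, and these 6 differences reached it (p = 0.1, or 0.214 after Benjamini-Hochberg adjustment over 15 tests). The Slc2a3 share was also lower in all labelled-knockout libraries than in all young controls at that smallest exact p of 0.1. The Hk2 share of the Hk1 and Hk2 total overlapped throughout. It was 46.7%, 90.7% and 43.9% in labelled-knockout libraries, 53.2%, 59.1% and 39.6% in aged controls and 56.1%, 51.8% and 75.5% in young controls. Hk3, a hexokinase outside the set, is not in that total, and was listed at 31.4, 48.4 and 3.08 FPKM in aged controls. Its level was at most 0.580 FPKM in each other library, so the Hk2 share does not describe all hexokinase FPKM. The Ldhb share of lactate dehydrogenase FPKM was 23.8%, 26.6% and 17.7% in labelled-knockout libraries, 12.4%, 10.1% and 26.7% in aged controls and 25.8%, 31.3% and 33.3% in young controls. The third aged control had a larger Ldhb share than the other aged controls, so these groups overlapped in the aged against young comparison (exact permutation p = 0.2).

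**Figure D3:**
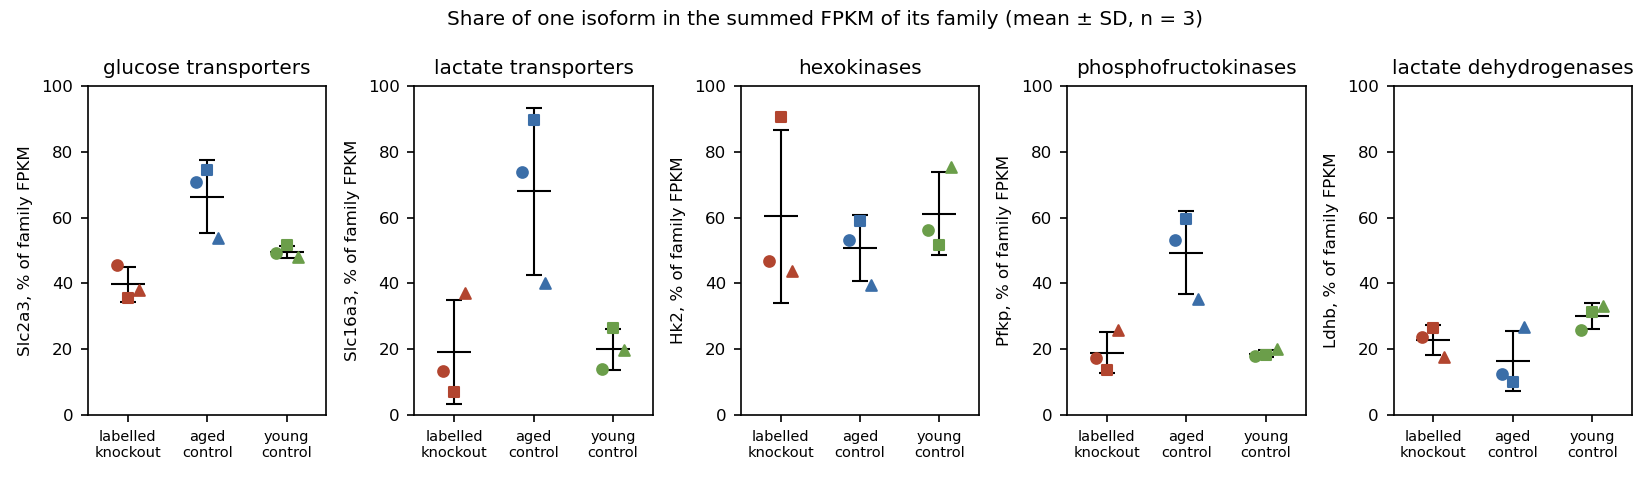
Share of 1 isoform in the summed FPKM of its family, in percent, for each library, with the mean and SD of 3 libraries per group. Families hold only genes of the set, so Hk3 is not counted among the hexokinases. The Pfkp, Slc2a3 and Slc16a3 shares of all aged controls lie above those of all other libraries, with Pfkp at 35.2% or more in aged controls and at most 25.8% elsewhere.

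The libraries with the high Slc16a3, Slc2a3, Pfkp, Gpi1 and Pkm values were also those with the highest leukocyte marker sums. Laptm5, a lysosomal protein of blood cells, was listed at 0.350, 3.81 and 1.51 FPKM in labelled-knockout libraries, 65.3, 99.7 and 8.95 FPKM in aged controls and 0.440, 0.790 and 0.800 FPKM in young controls. Of 10 tested pan-leukocyte markers, 8 were called higher in aged than in young controls and 7 lower in labelled-knockout libraries than in aged controls (limma adjusted p under 0.05). Of all tested genes, 2.57% and 1.96% were called in those directions. The third aged control, with fewer leukocyte markers than the other aged controls, had 1.90 FPKM of Slc16a3, 11.5 of Gpi1 and 7.89 of Slc2a3, close to or below the young controls, while its 6.36 FPKM of Pfkp and 32.1 FPKM of Pkm still exceeded all young controls. These are FPKM as listed. Median-ratio rescaling divides the values of the third aged control by 0.794, and those of young controls by 1.14, 1.16 and 1.14. It thus raises the third aged control relative to the young controls. The parts of scaling and of leukocyte RNA in these differences between libraries were not tested.

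A pair of glycolysis genes outside the set passed the test. Of 53 further genes of glycolysis and glucose use, 41 were tested, and 2 were called higher in aged than in young controls and lower in labelled-knockout libraries than in aged controls, against 2.57% and 1.96% of all tested genes called in those directions. At an unadjusted p under 0.05 stood 7 of the 41 for aged against young controls, where 21.7% of all tested genes did. For labelled-knockout libraries the counts were 5 against aged controls, where 19.8% of all tested genes did, and 2 against young controls, where 8.63% did. The first called gene was Hk3, a hexokinase of myeloid cells, which also stands in the neutrophil marker list. That list as a whole did not rise with it. Of its 10 tested markers 2 were called higher in aged than in young controls, and their median log2 fold change was -0.31. The sum of its 11 markers was 288, 107 and 245 FPKM in aged controls and 124, 189 and 319 FPKM in young controls. Hk3 was listed at 0.290, 0.180 and 0.520 FPKM in labelled-knockout libraries, 31.4, 48.4 and 3.08 FPKM in aged controls and 0.580, 0.240 and 0.170 FPKM in young controls (log2 fold change 3.83, limma adjusted p = 0.0310 for aged against young controls, and -3.82, limma adjusted p = 0.0320 for labelled-knockout libraries against aged controls). The second was Slc2a6, the lysosomal glucose transporter family member GLUT6, which was listed at 0, 0 and 0.250 FPKM in labelled-knockout libraries, 13.4, 19.4 and 1.29 FPKM in aged controls and 0.0300, 0 and 0.0200 FPKM in young controls (limma adjusted p = 0.0395 for aged against young controls and 0.0455 for labelled-knockout libraries against aged controls). The median log2 fold change of the 41 genes was -0.28 for aged against young controls, the same as that of all tested genes to 2 decimals.

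**Figure D4:**
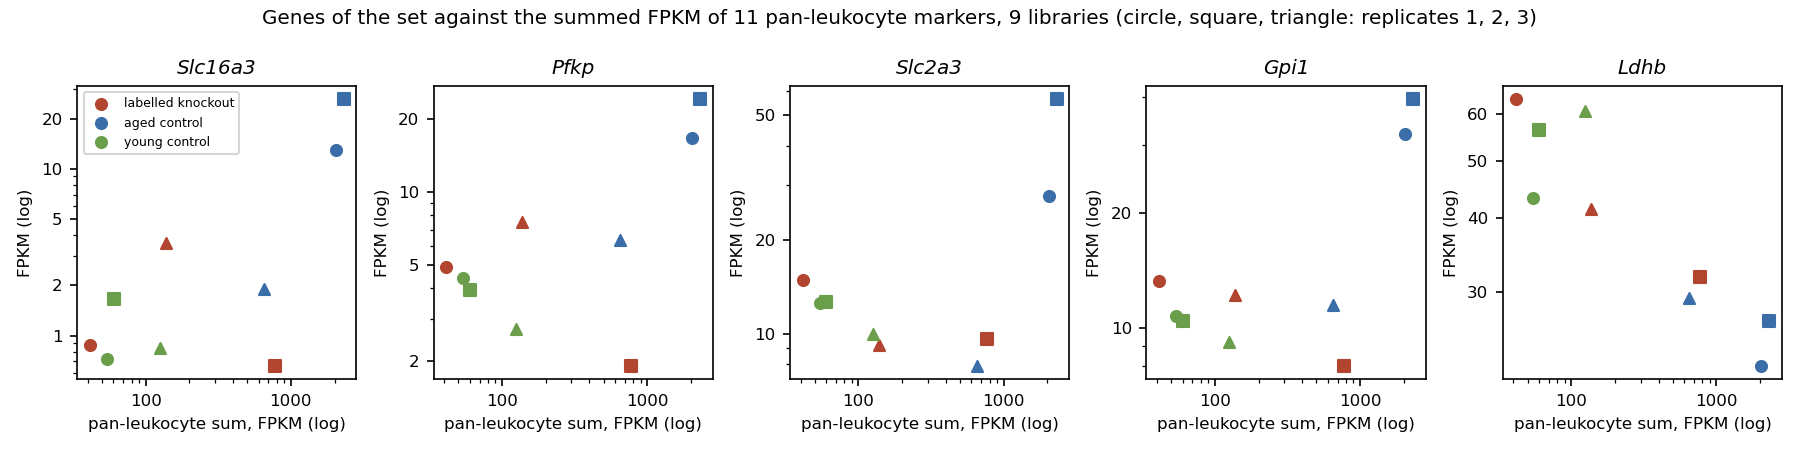
FPKM of 5 genes of the set against the summed FPKM of 11 pan-leukocyte markers in the 9 libraries, both axes logarithmic. Slc16a3, Pfkp, Slc2a3 and Gpi1 are highest in aged control replicates 1 and 2, where the marker sum is 2044 and 2314, and the second labelled-knockout library, with a sum of 774, has the lowest Slc16a3, Pfkp and Gpi1 values.

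The oxygen-sensing genes centred on Egln1, which encodes PHD2, the main HIF prolyl hydroxylase. Its levels were 17.1, 16.5 and 18.2 FPKM in labelled-knockout libraries, 8.45, 11.2 and 11.3 FPKM in aged controls and 15.9, 19.0 and 19.0 FPKM in young controls. In FPKM as listed, all 3 aged controls lay below the 6 other libraries, and the labelled-knockout and young ranges overlapped. Divided by the median-ratio factors, 0.794 for the third aged control and 1.14 for the first young control, the former would lie just above the latter. The log2 fold change was -0.75 (SE 0.20, limma adjusted p = 0.0711) for aged against young controls, 0.70 (SE 0.20, limma adjusted p = 0.0980) for labelled-knockout libraries against aged controls and -0.05 (SE 0.20, limma adjusted p = 0.931) for labelled-knockout libraries against young controls. The first pair were the smallest adjusted p-values of the set in their comparisons. After median-ratio rescaling, which raised the median of all genes by 0.28 for aged against young controls, the log2 fold changes of Egln1, Ldhb and Higd1a in that comparison were -0.43, -0.66 and -0.61 (limma adjusted p = 0.347, 0.214 and 0.241).

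Egln3, the hydroxylase PHD3 that HIF itself induces, was listed at 1.25, 0.0600 and 9.57 FPKM in labelled-knockout libraries, 2.14, 2.94 and 1.53 FPKM in aged controls and 0.980, 0.830 and 1.27 FPKM in young controls. The aged controls lay above the young ones, and the labelled-knockout libraries spanned a wider range than all others (log2 fold change 0.64, SE 0.68, limma adjusted p = 0.617 for aged against young controls). The value of 0.0600 FPKM in the second of them is below the level that 3 reads would give a gene of 2 kb there, 0.0824 FPKM.

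The HIF subunits overlapped between groups in every comparison. Epas1, which encodes HIF-2α, had a mean of 97.7 FPKM over the 9 libraries and was listed at 81.2, 209 and 63.5 FPKM in labelled-knockout libraries, 49.3, 96.5 and 67.1 FPKM in aged controls and 120, 93.9 and 98.6 FPKM in young controls. Hif1a, which encodes HIF-1α, averaged 23.0 ± 7.26 FPKM in labelled-knockout libraries, 23.3 ± 4.46 FPKM in aged controls and 28.8 ± 3.89 FPKM in young controls (SD, n = 3 each). Per length, Epas1 thus exceeded Hif1a in each library. Arnt, the shared partner HIF-1β, lay between 6.07 and 11.6 FPKM, and Vhl, which targets the alpha subunits for breakdown, between 9.06 and 28.3 FPKM. HIF is set mainly through protein breakdown, which these data do not measure.

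Among the 6 tested hypoxia targets, 4 lay lower in aged than in young controls with no overlap, as did 37.4% of all tested genes. Higd1a, a mitochondrial protein induced by low oxygen, was listed at 24.0, 13.2 and 26.6 FPKM in labelled-knockout libraries, 12.1, 11.2 and 10.9 FPKM in aged controls and 20.2, 18.5 and 30.7 FPKM in young controls. The aged controls lay below the 6 other libraries, with a log2 fold change of -0.93 (SE 0.30, limma adjusted p = 0.117) for aged against young controls and 0.79 (SE 0.30, limma adjusted p = 0.187) for labelled-knockout libraries against aged controls. Ankrd37, an ankyrin-repeat protein and known HIF target, was low throughout, at 1.86, 3.14 and 2.75 FPKM in labelled-knockout libraries, 1.10, 1.46 and 1.25 FPKM in aged controls and 1.92, 1.83 and 2.06 FPKM in young controls. Its labelled-knockout libraries lay above all aged controls (log2 fold change 0.64, SE 0.21, limma adjusted p = 0.137), and it overlaps the exons of a pair of other genes.

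Bnip3 and Bnip3l encode mitophagy receptors of the outer mitochondrial membrane. Bnip3l was listed at 20.9, 20.0 and 30.0 FPKM in labelled-knockout libraries, 28.9, 32.8 and 25.6 FPKM in aged controls and 35.1, 36.2 and 42.8 FPKM in young controls. Both aged groups lay below the young controls in FPKM as listed and overlapped each other, and labelled-knockout libraries against young controls gave the smallest p of the set in that comparison (log2 fold change -0.68, SE 0.23, limma adjusted p = 0.464). After median-ratio rescaling the log2 fold change of Bnip3l moved from -0.38 to -0.05 for aged against young controls, and to -0.47 for labelled-knockout libraries against young controls. Bnip3 was listed at 25.8, 25.0 and 38.4 FPKM in labelled-knockout libraries, 27.4, 27.5 and 19.7 FPKM in aged controls and 33.1, 35.9 and 39.9 FPKM in young controls (log2 fold change -0.54, SE 0.24, limma adjusted p = 0.234 for aged against young controls).

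Ddit4, also called Redd1, which restrains mTORC1 signalling, had the highest mean level of these targets. Its levels were 53.7, 112 and 38.5 FPKM in labelled-knockout libraries, 73.7, 137 and 21.1 FPKM in aged controls and 38.9, 31.4 and 31.1 FPKM in young controls. Both 18-month groups spread widely and reached above the young controls, and the third aged control was the lowest of all (log2 fold change 0.85, SE 0.62, limma adjusted p = 0.665 for labelled-knockout libraries against young controls). Ndrg1, a hypoxia and stress-induced gene, averaged 11.98 ± 0.938 FPKM in labelled-knockout libraries, 13.0 ± 6.85 FPKM in aged controls and 13.1 ± 1.71 FPKM in young controls (SD, n = 3 each).

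Pfkfb3, whose product raises the activator of phosphofructokinase, led the switch enzymes in level. It was listed at 3.83, 3.03 and 4.13 FPKM in labelled-knockout libraries, 3.70, 3.77 and 1.87 FPKM in aged controls and 4.75, 4.87 and 4.80 FPKM in young controls. Both 18-month groups lay below the tightly grouped young controls (log2 fold change -0.54, SE 0.25, limma adjusted p = 0.249 for aged controls and -0.32, SE 0.25, limma adjusted p = 0.675 for labelled-knockout libraries). Pfkfb4, a second enzyme of that kind, was listed at 4.02, 2.01 and 1.97 FPKM in labelled-knockout libraries, against 1.23, 1.72 and 1.67 FPKM in aged controls and 2.01, 2.03 and 1.22 FPKM in young controls. Pdk1, the kinase that keeps pyruvate out of the mitochondrial cycle, lay between 0.420 and 1.78 FPKM with overlapping groups.

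HIF targets outside the set gave 3 calls. Of 60 listed genes of the HIF pathway, 59 were matched and 50 tested, and 3 were called lower in aged than in young controls, against 1.47% of all tested genes called lower, with 0 called by limma for labelled-knockout libraries against aged or against young controls. At an unadjusted p under 0.05 stood 14 of the 50 for aged against young controls. The counts for labelled-knockout libraries were 18 against aged controls and 2 against young controls, and the 3 counts compare with 21.7%, 19.8% and 8.63% of all tested genes. Angptl4, a secreted inhibitor of lipoprotein lipase, was listed at 256, 83.96 and 203 FPKM in labelled-knockout libraries, 68.5, 69.4 and 52.4 FPKM in aged controls and 310, 249 and 247 FPKM in young controls (log2 fold change -2.07, SE 0.38, limma adjusted p = 0.0254 for aged against young controls). Tmem45a, a membrane protein induced by hypoxia, averaged 17.9 ± 1.98 FPKM in labelled-knockout libraries, 8.55 ± 0.943 FPKM in aged controls and 20.5 ± 5.32 FPKM in young controls (SD, n = 3; log2 fold change -1.15, limma adjusted p = 0.0310 for aged against young controls).

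Cited2, a feedback inhibitor of HIF that competes for the coactivators CBP and p300, averaged 105 ± 22.0 FPKM in labelled-knockout libraries, 68.3 ± 7.19 FPKM in aged controls and 138 ± 9.20 FPKM in young controls (SD, n = 3; log2 fold change -1.01, limma adjusted p = 0.0409 for aged against young controls). The median log2 fold change of the 50 genes was -0.47 for aged against young controls, against -0.28 for all tested genes, and 0.35 for labelled-knockout libraries against aged controls, against 0.07. In FPKM as listed, the sum of 10 stromal markers was also lower in aged controls, at 4407 to 6377 FPKM. It was 6744 to 9237 FPKM in labelled-knockout libraries and 8870 to 10030 FPKM in young controls. The median-ratio factors were 1.11 for the third labelled-knockout library and 0.794 for the third aged control. Divided by them, the sum of the former would lie below that of the latter. The sum of 11 chondrocyte markers was 1499, 163 and 3996 FPKM in labelled-knockout libraries, 45.0 to 67.2 FPKM in aged controls and 163 to 433 FPKM in young controls. The sum of 8 osteoblast markers was 5058, 1786 and 8336 FPKM in labelled-knockout libraries, 1034 to 1892 FPKM in aged controls and 5738 to 7794 FPKM in young controls. Of these 8 markers 4 were called lower in aged than in young controls and 4 higher in labelled-knockout libraries than in aged controls, as were 0 and 8 of the 11 chondrocyte markers (limma adjusted p under 0.05), against 1.47% and 1.52% of all tested genes. None of the markers of these 3 lists was at 0 in all libraries of a group. Their part in these differences was not tested.

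Over the whole set, signs were mixed. For aged against young controls, 13 genes had a positive and 22 a negative log2 fold change, with a median of -0.12 against -0.28 for all tested genes, and 25 of 35 lay above that median. For labelled-knockout libraries against aged controls, 21 were positive and 14 negative, with a median of 0.09 against 0.07. For labelled-knockout libraries against young controls, 17 were positive and 18 negative, with a median of -0.01 against -0.16. Without overlap between the groups, 5 genes were higher and 8 lower in aged than in young controls, against 7.02% and 37.4% of all tested genes. In labelled-knockout libraries 7 genes were higher and 0 lower than in aged controls, against 16.6% and 6.54% of all, and 2 were higher and 2 lower than in young controls, against 4.08% and 13.4%. The balance of signs follows the scaling of the libraries. After median-ratio rescaling the set had 26 positive and 9 negative genes for aged against young controls (median 0.18, against -0.0019 for all tested genes). It had 17 and 18 for labelled-knockout libraries against aged controls (median -0.04, against -0.04) and 27 and 8 against young controls (median 0.20, against 0.0080). With immunoglobulin genes left out the counts were 26 and 9, 14 and 21, and 22 and 13 in the same order of comparisons. Rescaling shifts nearly all genes and their median alike, so the number of genes of the set above that median could hardly move with it. As listed, after median-ratio rescaling and without immunoglobulin genes, it was 25, 26 and 26 for aged against young controls. For labelled-knockout libraries, in that order, it was 18, 17 and 17 against aged controls and 26, 27 and 27 against young controls.

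**Figure D5:**
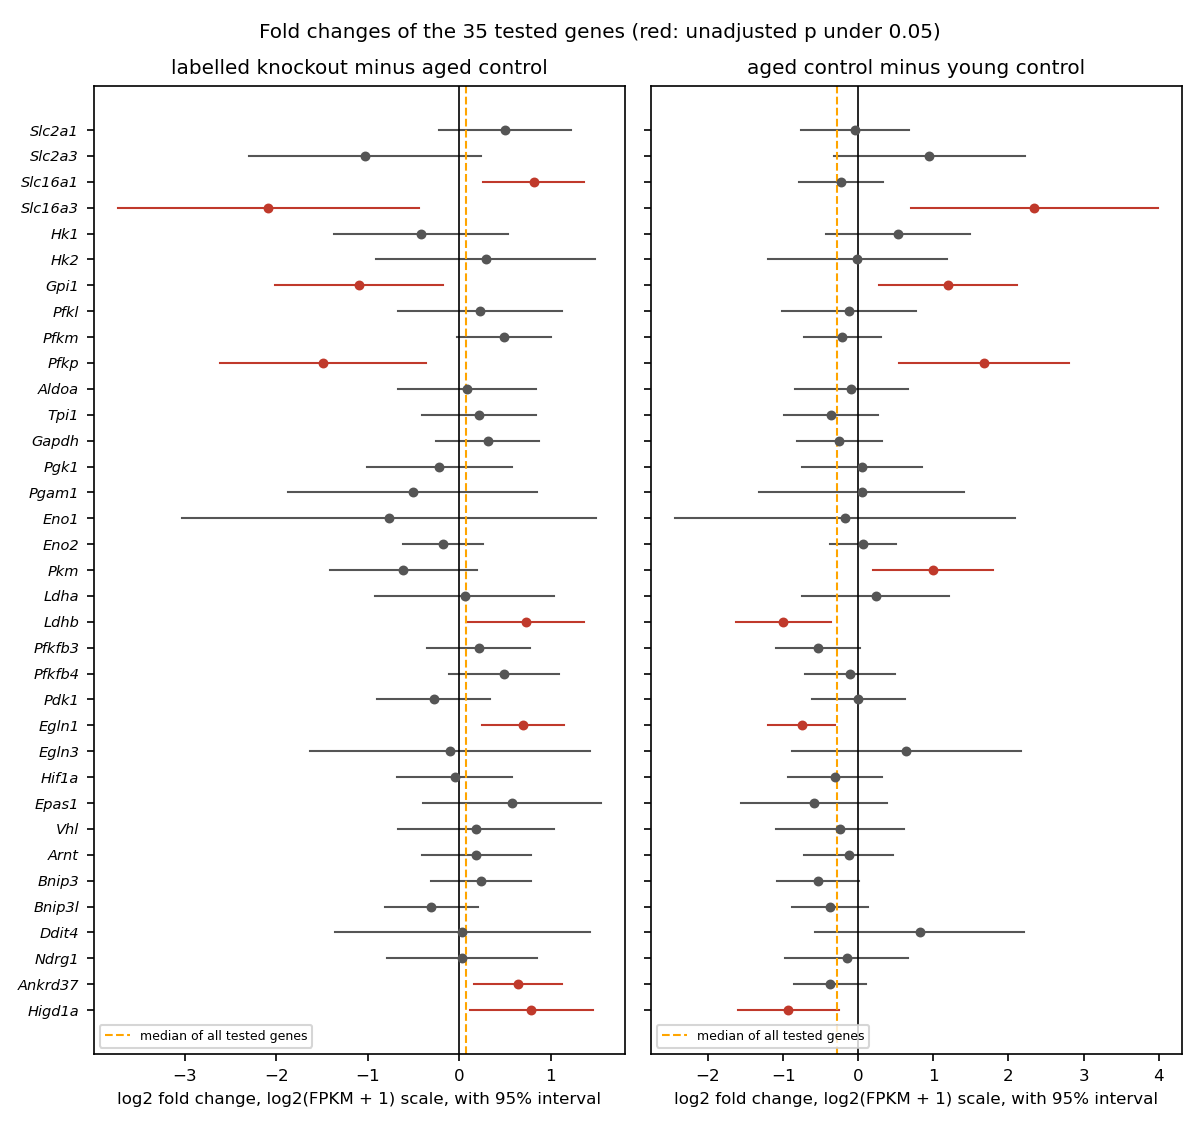
Log2 fold change of each tested gene with its 95% interval, for labelled-knockout libraries against aged controls on the left and aged against young controls on the right. Red marks an unadjusted p under 0.05, which 8 genes had on the left and 7 on the right, and the dashed line is the median of all tested genes.

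Which genes of the set passed depended on which library was left out. Without the second labelled-knockout library, which stood apart, 7 genes passed an adjusted p of 0.05 in the limma fit for aged against young controls, 4 higher (Gpi1, Pfkp, Pkm and Slc16a3) and 3 lower (Egln1, Higd1a and Ldhb), against 5.17% and 17.9% of all tested genes. Those fold changes did not move, since that library is in neither group, while the shared spread was smaller. For labelled-knockout libraries against aged controls, Egln1, Higd1a and Ldhb then passed as higher, with log2 fold changes of 0.73, 1.08 and 0.95 (limma adjusted p = 0.0321, 0.0174 and 0.0318), against 11.5% of all tested genes called higher. Without the third aged control, Gpi1, Pfkp, Slc16a3 and Slc2a3 passed as higher in aged than in young controls, with Slc16a3 at 3.26 on the log2 scale (limma adjusted p = 0.00996), against 2.68% of all genes called higher. In that fit Gpi1, Slc16a3 and Slc2a3 also passed as lower in labelled-knockout libraries than in aged controls, against 2.57% of all genes. With any other single library left out, no gene of the set passed in any comparison in the limma fit, with 1 to 9 genes at an unadjusted p under 0.05. The numbers of all tested genes that passed differed widely between those fits. For aged against young controls they ranged from 4 of 11712 to 481 of 11877. For labelled-knockout libraries against aged controls they ranged from 13 of 11712 to 108 of 11853. For aged against young controls, 3 genes passed after median-ratio rescaling, Gpi1, Pfkp and Pkm, all higher, against 3.57% of all genes called, and they also passed with immunoglobulin genes left out, against 3.8%. In a fit of the control groups alone 4 passed, Pfkp as higher and Egln1, Higd1a and Ldhb as lower, against 17.8%. After median-ratio rescaling without the second labelled-knockout library, 5 passed as higher, Gpi1, Hk1, Pfkp, Pkm and Slc16a3, against 10.7%.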

How the data were processed

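The deposited table gives FPKM per gene, rounded to 2 decimals, as the file headers and values show. GRCm38 (mm10) is the build, and STAR, edgeR and FastQC 0.11.5 the tools, named without a role in the submitters' processing notes. The sources used here do not give the annotation, the counter or how multi-mapping reads were handled. Groups came from the sample titles. Because FPKM is relative to the library total, a few very abundant transcripts lower all other values.

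A single limma 3.58.1 fit (R 4.3.3, trend option, log2(FPKM + 1)) held all 9 libraries, with group means and 6 residual degrees of freedom, for the 11988 genes with at least 1 FPKM in at least 3 libraries. Benjamini-Hochberg adjustment of the p-values ran over all of them, with a threshold of 0.05. Fold changes on this scale understate the change of low genes. Intervals are at 95%. The fit was tested on simulated data, with 50 genes changed at each size. For aged against young controls and labelled-knockout libraries against aged and young controls, it recovered 28%, 20% and 18% of changes of 1 on the log2 scale. Of changes of 2 it recovered 64%, 68% and 70%. Many changes of 1 were thus missed in the simulation, and changes near 1 may be missed in the data too. Of the simulated calls, 7.95%, 5.04% and 7.33% were unchanged genes, in the same order of comparisons. Few genes were changed there and the noise was independent between genes, so these rates need not hold for the data. The alternatives changed the pseudocount (0.1) or the filter (none, or 5 FPKM), or used median-ratio rescaling, removal of immunoglobulin genes, the replicate block, a fit of the compared groups only, each library left out, and median-ratio rescaling without the second labelled-knockout library.

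Depth was read from the step between low FPKM values times gene length (GENCODE M21), sought between 5 and 40 M reads (M, mega), and came to 17.7 to 27.6 M reads. At that step 99.3% to 100% of the low values used were whole reads within 0.1, which cannot exclude a multiple of it. A 2 kb gene with 3 reads would be listed at 0.0543 to 0.0847 FPKM, covering counting error only. The immunoglobulin share was estimated from FPKM times exon length. Copies were sought among GENCODE M21 transcripts. Tables, exact tests and figures were made in Python 3.11.15 (pandas 2.3.3, numpy 2.4.6, matplotlib 3.10.9, scipy 1.17.1).

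The genes, lists and markers were chosen with earlier results of these data known. Named were, in each comparison, the 5 genes of the set with the smallest p, the highest-mean gene of each role, genes whose groups did not overlap, the 2 below the filter, called list genes, Thbs1 and genes a result turned on. Further genes of the set were named after their values were seen, to complete the pathway.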

Additional observations from a re-analysis of the deposited data

How the results depend on the processing

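For aged against young controls, no gene of the set was called at a pseudocount of 0.1, without a filter, with a filter at 5 FPKM or with the replicate block in limma (6 to 8 at an unadjusted p under 0.05), while 3 were called after median-ratio rescaling and 3 with immunoglobulin genes left out (Gpi1, Pfkp and Pkm higher both times, at 1.51, 1.96 and 1.32 on the log2 scale in the first), 4 in a fit of the compared groups only, and 5 after median-ratio rescaling without the second labelled-knockout library. These stood against 3.57%, 3.8%, 17.8% and 10.7% of all tested genes called. Leaving out 1 library at a time gave 0 to 7 called genes for aged against young controls, where 4 to 2729 of all tested genes were called. It gave 0 to 3 for labelled-knockout libraries against aged controls, where 13 to 1895 of all were called, and 0 to 0 against young controls. For the labelled-knockout comparisons the other alternatives all gave 0, with 1 to 10 genes at an unadjusted p under 0.05. Over 17 alternatives, or 16 for the 7 genes not tested with the filter at 5 FPKM (Ankrd37, Egln3, Eno2, Pdk1, Pfkfb3, Pfkfb4 and Slc16a3), 17, 18 and 13 of 35 genes kept 1 sign throughout for aged against young controls and for labelled-knockout libraries against aged and against young controls. With the replicate block 0 genes of the set passed in each comparison in limma (7, 7 and 1 at an unadjusted p under 0.05) and 120, 64 and 2 of all genes did, against 484, 417 and 3 without it; same-numbered libraries correlated between -0.29 and 0.30 in their deviations from group means, so the numbers were not taken as pairs. The cause of these changes was not tested. Below 0.0543 to 0.0847 FPKM a gene of 2 kb rests on fewer than 3 reads, which touches Aldoc, Car9 and Egln3.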
